A study of Arabidopsis thaliana with 123 samples.

Results

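The 9 genes described here carry the gibberellin signal from the hormone to its repressors: the 3 GID1 receptors, the 5 DELLA proteins and the F-box protein SLY1. They were chosen by name as members of this pathway, with earlier results of these data known, from the 37336 genes of a count table made by RNA sequencing of maturing Arabidopsis thaliana seeds. Gibberellin binds a GID1 receptor, and the bound receptor takes hold of a DELLA protein. DELLA proteins sit in the nucleus and hold back growth and germination. The F-box protein SLY1 joins the caught DELLA to an E3 ubiquitin ligase, and the DELLA is then degraded. In seed, gibberellin acts against abscisic acid, the hormone that imposes maturation and dormancy, and RGL2 is the DELLA best known for holding back germination. These steps act on protein, so transcript counts show how much of each message was present and not how much protein remained.

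Seeds were pooled from siliques of Col-0 plants, and the whole seed was used, so each library holds embryo, endosperm and seed coat RNA. The libraries fall into 43 groups of 2 or 3 replicate libraries, defined by genotype, stage and the batch named in the sample titles. Batch A holds 31 libraries: wild type at 12, 14, 16, 18, 20, 22 and 24 days after pollination (DAP) and as dry seed (26 days or more), and abi3-6 at 16 to 22 DAP. Batch B holds 92 libraries: wild type, abi3-12, abi3-12 dog1-4 and abi3-12 dog1-4 cyp707a2 at 18 to 24 DAP and dry, dog1-4 from 20 DAP, abi3-6 at 24 DAP and dry, and 5 further lines as dry seed. Those 5 are aba2-1, dog1-4 aba2-1, abi3-12 aba2-1, abi3-12 dog1-4 aba2-1, and L2-1, a transgenic Col-0 line that carries DOG1 of the Cvi accession. The labels describe every other line as a knock-out or as a combination of knock-outs in Col-0. ABI3 is the transcription factor that drives the seed maturation programme, and DOG1 is a regulator of seed dormancy. ABA2 is an enzyme of abscisic acid synthesis, and CYP707A2 breaks it down.

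Libraries held 2577281 to 20277489 counts on genes, with a median of 11678153. Levels are counts scaled to CPM (counts per 1e6 library counts) with edgeR's TMM factors, and levels of different genes were set beside each other only per kilobase of exon. Comparisons used edgeR's quasi-likelihood test within a batch, and a gene was called at a Benjamini-Hochberg adjusted p under 0.05 over all genes tested. All 9 genes passed the filter on low counts in both batches. The sources used here do not settle whether the replicate pools came from separate plants, so p-values measure the spread between these libraries. The labelled mutations were checked on their own transcripts: DOG1 in dry seed lay at 0.66 to 1.40 CPM in the lines carrying dog1-4 and at 24.4 to 40.6 CPM in wild type. ABI3 transcripts were present in the abi3 lines, at 136 to 156 CPM in dry abi3-6 and 192 to 207 CPM in dry wild type of batch B. CYP707A2 lay at 9.30 to 10.5 CPM in dry abi3-12 dog1-4 cyp707a2, at 5.17 to 5.73 CPM in dry abi3-12 dog1-4 and at 58.3 to 75.9 CPM in dry wild type. At 18 and 20 DAP it lay at 0 to 0.895 and 4.89 to 9.32 CPM in the line with cyp707a2, below the 9.29 to 25.7 and 42.6 to 56.4 CPM of abi3-12 dog1-4. ABA2 transcripts were at 1.497 to 1.89 CPM in dry aba2-1 and 1.78 to 2.15 CPM in dry wild type, ranges that overlap.

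The genes lie on all 5 nuclear chromosomes, and none overlapped another annotated gene in RefSeq's TAIR10.1, whose positions are given here. Among the receptors, GID1A (AT3G05120) lies at chr3:1430363-1432844 on the plus strand, GID1B (AT3G63010) at chr3:23289243-23291486 on the plus strand and GID1C (AT5G27320) at chr5:9628990-9631291 on the plus strand. Among the DELLA genes, GAI (AT1G14920) lies at chr1:5148982-5151415 on the plus strand, RGA (AT2G01570) at chr2:255247-257568 on the minus strand and RGL1 (AT1G66350) at chr1:24748105-24750186 on the plus strand. RGL2 (AT3G03450) lies at chr3:819337-821652 on the minus strand and RGL3 (AT5G17490) at chr5:5763989-5766246 on the minus strand. SLY1 (AT4G24210) lies at chr4:12563279-12564482 on the plus strand. Each receptor is encoded in 2 coding exons, while the DELLA genes and SLY1 each have 1.

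The receptors bind DELLA proteins through a short stretch near the start of the protein, after whose first 5 amino acids, by their letters, the family is named. The coding bases of that stretch are printed for the 5 genes, from RefSeq's TAIR10.1, 5′ to 3′ on the coding strand, since they show how the members differ at the site where the receptor docks. Capitals mark the first 5 codons.
GAI: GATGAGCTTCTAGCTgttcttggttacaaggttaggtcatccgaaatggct
RGA: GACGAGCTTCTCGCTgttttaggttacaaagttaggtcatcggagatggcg
RGL1: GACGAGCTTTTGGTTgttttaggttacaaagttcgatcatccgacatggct
RGL2: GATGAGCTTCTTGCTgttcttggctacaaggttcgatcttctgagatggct
RGL3: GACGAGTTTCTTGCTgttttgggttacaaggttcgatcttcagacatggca
The capitals of GAI, RGA and RGL2 spell the family's 5 amino acids, and those of RGL1 and RGL3 do not. In GAI the stretch is codons 28 to 44 at chr1:5149495-5149545, and in RGA codons 44 to 60 at chr2:257165-257215. It is codons 32 to 48 of RGL1 at chr1:24748420-24748470, codons 44 to 60 of RGL2 at chr3:821100-821150 and codons 34 to 50 of RGL3 at chr5:5765738-5765788. Over the aligned coding sequence, GAI and RGA were 82.6% identical and RGL2 and RGL3 were 77.4% identical. GID1A and GID1C were 84.2% identical, and their longest identical run was 35 bases, against 30 for GAI and RGA. A read that falls wholly inside such a run cannot be given to 1 member by its sequence.

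In wild type, the receptors GID1A and GID1C rose from 12 to 18 DAP and again from 18 DAP to dry seed. GID1A stood at 12.4, 16.3 and 22.5 CPM at 12 DAP, at 50.5, 57.5 and 45.6 CPM at 18 DAP and at 133.3, 123.3 and 138.8 CPM in dry seed of batch A. The 3 stages did not overlap. From 12 to 18 DAP its log2 fold change was 1.58 (SE 0.16, adjusted p = 2.2e-09), and to dry seed a further 1.36. GID1C went from 1.11, 1.27 and 1.68 CPM at 12 DAP through 8.45, 8.46 and 7.69 CPM at 18 DAP to 26.5, 24.7 and 27.7 CPM in dry seed, with log2 fold changes of 2.58 (SE 0.18) and 1.68. Most of both rises lay between 16 and 20 DAP: GID1A went from 20.0, 27.7 and 28.9 CPM to 103, 104 and 116 CPM, and GID1C from 2.35 to 3.24 CPM to 24.3 to 29.0 CPM. Batch B gave the same direction from 18 DAP to dry seed, with GID1A at 26.0, 31.0 and 26.4 CPM and then 173, 156 and 160 CPM, a log2 fold change of 2.54 (SE 0.15). GID1B, the third receptor, was near the limit of counting: no wild-type library held more than 5 counts, which is at most 0.52 CPM, and its expression or its absence in wild-type seed could not be settled at this depth.

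The DELLA genes went different ways in wild type. RGL3 rose with the receptors, from 2.44, 2.14 and 3.92 CPM at 12 DAP through 17.9, 22.8 and 19.7 CPM at 18 DAP to 59.4, 52.2 and 53.7 CPM in dry seed of batch A, with log2 fold changes of 2.80 (SE 0.20) and 1.46. RGA fell over the same first interval, from 21.4, 27.3 and 30.1 CPM to 9.82, 7.55 and 9.86 CPM, a log2 fold change of -1.53. RGL1, the least abundant DELLA per kilobase from 16 DAP on, was at 3.71, 2.82 and 3.2 CPM at 14 DAP and at 0, 0.13 and 0.11 CPM at 20 DAP. From 18 DAP to dry seed RGL1 was at least 4.65-fold lower in batch A and at least 9.42-fold lower in batch B, since a floor of 3 counts per library stands in for the dry seed. GAI rose by small steps (0.34 from 12 to 18 DAP and 0.26 from there to dry seed), from 18.7, 22.4 and 18.1 CPM at 12 DAP to 31.3, 31.0 and 27.5 CPM in dry seed. RGL2, the germination repressor, was at 15.6, 17.8 and 19.2 CPM at 12 DAP, the dry seed held 14.2, 14.2 and 10.5 CPM, and its libraries at 12 and 18 DAP overlapped. From 18 DAP to dry seed its log2 fold change was -0.31 (adjusted p = 0.045) in batch A and 0.64 (adjusted p = 0.013) in batch B, and the difference between the batches was not tested.

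SLY1 moved by less than the receptors, from 9.55, 10.5 and 9.15 CPM at 12 DAP to 6.71, 7.40 and 9.03 CPM at 18 DAP, and dry seed of batch A held 10.7, 12.0 and 11.2 CPM. Its log2 fold change was -0.35 and then 0.56, and in batch B the second was 0.21 and was not called (0.81 and called with scaling by library totals in place of TMM factors). Of the 9 genes, 7 were called from 12 to 18 DAP, beside 73.1% of all genes tested, and all 9 at any stage of batch A, beside 92.2%. The any-stage call of GID1B (adjusted p = 0.0496) ended with the replicate block (0.072), with no filter (0.057) and on leaving out any 1 of 19 of the 23 libraries. From 18 DAP to dry seed 7 were called in batch A, beside 63.8%, and 7 in batch B, beside 66.6%. A share this close to the background says little of these genes as a group, and the sizes above carry the description. Without wild-type replicate 2 at 12 DAP or replicate 1 at 18 DAP the fall of RGL1 from 12 to 18 DAP was not called (adjusted p = 0.064 and 0.081), and without either of these or replicate 2 at 18 DAP neither was that of SLY1 (adjusted p = 0.086, 0.16 and 0.061). From 18 DAP to dry seed, the calls of GAI (replicates 1 and 2 of both stages) and RGL2 (18 DAP replicates 1 and 3, dry replicate 3) in batch A, of RGL2 in batch B (18 DAP replicate 3, dry replicate 2) and of RGA in batch B (18 DAP replicate 3) each rested on those libraries. Their adjusted p reached 0.10, 0.28, 0.092 and 0.092 with 1 such library left out. Scaling by library totals shifted the median over all genes, in log2 fold change, by -0.542 to 1.263 over the comparisons. It turned the sign of GAI from 12 to 18 DAP (-0.21) and of RGL2 from 18 DAP to dry seed in batch A (0.38). That step of GAI was also not called with RLE in place of TMM factors (0.21, adjusted p = 0.055) or with DESeq2 (0.21, adjusted p = 0.079). GAI from 18 DAP to dry seed in batch A was not called with no filter (adjusted p = 0.076) or with only the groups compared (0.066).

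**Figure D1:**
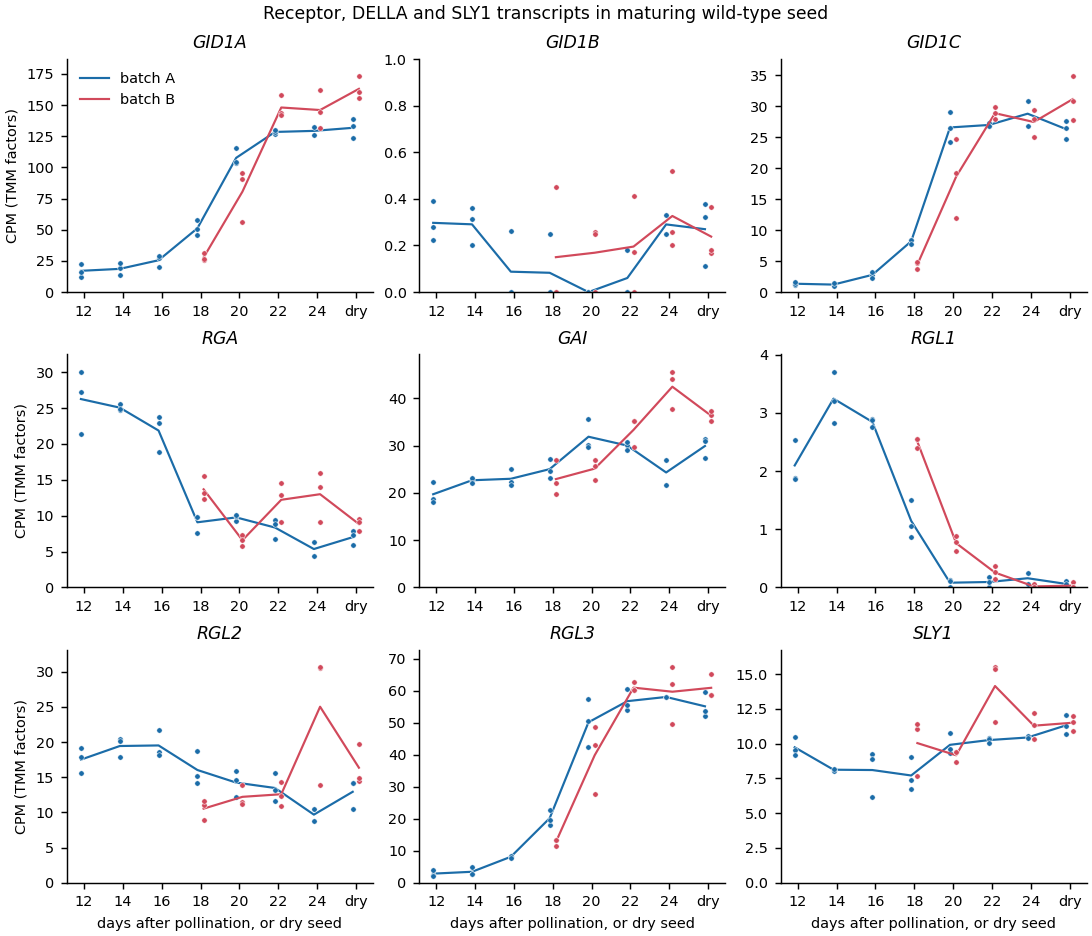
Levels of the 9 genes in wild type (CPM, y axis, with a scale of its own in each panel) against days after pollination or dry seed (x axis); points are libraries, lines join group means, and colours mark the batches. GID1A, GID1C and RGL3 climb steeply after 16 DAP, RGA and RGL1 decline before 20 DAP, and GID1B stays at or below 0.52 CPM.

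The seed also held storage protein, endosperm and seed coat transcripts in changing amounts over this course. Transcripts of 10 embryo storage genes made up 44.9% to 46.1% of counts at 18 DAP and 6.31% to 6.98% in dry wild type of batch B. Those of 6 seed coat genes fell from 0.0537% to 0.0577% to 0.000818% to 0.000997%, and TT12 among them was at 0 in all groups. Those of 4 endosperm genes went from 0.532% to 0.785% at 18 DAP to 1.95% to 2.13% in dry seed of batch B, and in batch A from 0.425% to 0.687% at 12 DAP to 2.16% to 3.21% at 18 DAP. Of these genes, ZOU was at 0 at 18 DAP in both batches, and ZOU and SUC5 were at 0 in dry seed of both. The rise of the sum in batch B therefore lay in EPR1 and RGP3 alone. Fewer cells of a type and less RNA per cell cannot be told apart in whole seeds, and the part of these shifts in the results on the 9 genes was not tested.

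Because the members changed unequally, the make-up of the DELLA message turned over. Per kilobase of exon, RGA was the highest DELLA transcript in wild type at 12 and 14 DAP, GAI at 16 and 18 DAP, and RGL3 from 20 DAP to dry seed. At 16 DAP GAI and RGA were nearly level, at 29.3% ± 1.4% and 29.2% ± 2.6% of the summed DELLA level (SD, n = 3). RGL3 made up 4.3% of the summed DELLA level at 12 DAP and 53.9% in dry seed of batch A, and 51.1% in dry wild type of batch B. The receptors overtook the DELLA genes in transcript: their sums were 9.8 and 29.2 CPM per kilobase at 12 DAP, a ratio of 0.332, and 83.3 and 45.3 CPM per kilobase in dry seed of batch A, a ratio of 1.85. In dry wild type of batch B the receptor sum was 102.2 ± 6.6 and the DELLA sum 52.8 ± 0.9 CPM per kilobase (SD, n = 3), and GID1A alone gave 83.4% of the receptor sum. Over all 43 groups of the study, RGL2 was the highest DELLA transcript in 21, RGL3 in 16, GAI in 4 and RGA in 2. This tally is by group mean and holds near ties, such as dry dog1-4, with RGL2 at 34.0% and RGL3 at 33.1%.

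**Figure D2:**
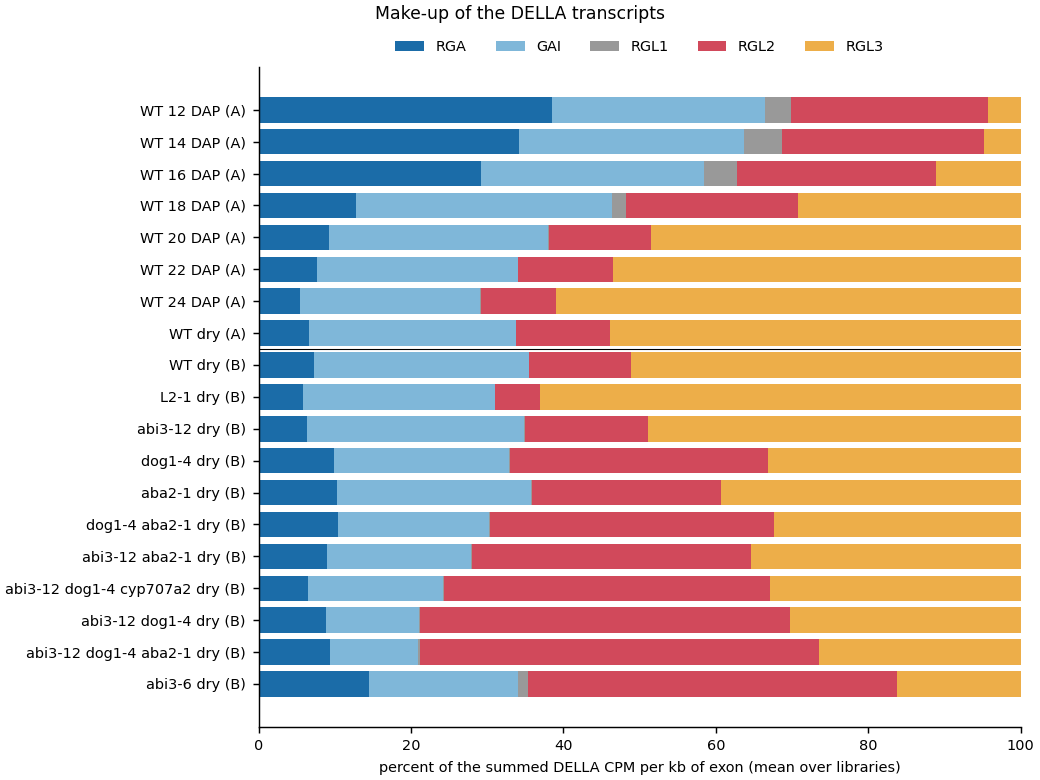
Make-up of the DELLA transcripts as a percent of the summed DELLA level per kilobase of exon (x axis, mean over the libraries of a group) in wild type by stage of batch A and in dry seed of batch B by genotype (rows). RGA shrinks and RGL3 grows down the wild-type rows, and RGL2 widens from 13.4% in dry wild type to 52.3% in abi3-12 dog1-4 aba2-1, with 48.5% in abi3-12 dog1-4 and 48.4% in abi3-6.

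In abi3-6 the receptors parted from one another. GID1A was at 29.4 and 29.8 CPM at 16 DAP, just above the wild-type 20.0, 27.7 and 28.9 CPM, and then stayed low, at 16.7 and 16.9 CPM at 18 DAP, with dry seed at 17.4, 20.1 and 18.8 CPM, where wild type held 173, 156 and 160 CPM. Its log2 fold change against wild type was 0.21 and not called at 16 DAP, -1.61 at 18 DAP, -3.05 at 20 DAP and -3.12 (SE 0.14, adjusted p = 3.6e-29) in dry seed. GID1C, the receptor nearest to GID1A in coding sequence, was at 3.92 and 3.52 CPM in abi3-6 at 16 DAP (batch A) and at 13.3, 10.14 and 12.2 CPM in dry seed (batch B), where its log2 fold change was -1.39. GID1B was higher than in wild type, at 0.66 and 0.70 CPM at 16 DAP and, in dry seed, at 2.35, 4.79 and 3.04 CPM. There its log2 fold change was 3.78 (SE 0.63, adjusted p = 3.2e-09), and at 22 DAP it was at least 10.6-fold higher than the wild-type floor. In dry abi3-6 the receptor sum was 54.8% GID1A, 36.0% GID1C and 9.24% GID1B.

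Among the DELLA genes of abi3-6, RGL2 was high at every stage, at 90.0 and 95.01 CPM at 16 DAP and 106 and 96.8 CPM at 18 DAP, and dry seed held 91.8, 73.6 and 71.4 CPM. No abi3-6 library came within the wild-type range of RGL2 at its stage, and its log2 fold changes ran from 1.58 to 2.67. RGL3 was ahead of wild type early and behind it late: the mutant held 61.6 and 67.4 CPM at 16 DAP (batch A) and 25.4, 26.7 and 24.6 CPM in dry seed (batch B), and its log2 fold change went from 2.99 to -1.25. RGA was higher at all 6 stages, most at 18 and 20 DAP (log2 fold changes of 2.41 and 2.49), where its libraries held 44.0 to 60.2 CPM. GAI was higher at 16 and 18 DAP (1.2 and 1.4) and in dry seed had a log2 fold change of -0.12 that was not called. RGL1, which faded in wild type, was at 7.84 and 7.97 CPM at 16 DAP and still at 0.73, 2.35 and 2.30 CPM in dry abi3-6, at least 6.74-fold above the wild-type floor. SLY1 was higher at 16 DAP (0.94) and lower from 22 DAP, at 5.43, 5.92 and 5.17 CPM in dry seed (-1.07).

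Over the 6 stages, 48 of 54 tests of the 9 genes were called in abi3-6, 31 higher and 17 lower. By stage from 16 DAP to dry seed 7, 9, 7, 8, 9 and 8 genes were called, beside 66.5%, 74.5%, 79.2%, 77.4%, 77.6% and 77.7% of all genes. At 18 DAP the calls of GID1C and SLY1 ended without abi3-6 replicate 1 (adjusted p = 0.066) and without wild-type replicate 1 (adjusted p = 0.075), and the small fall of GAI at 24 DAP (-0.25, adjusted p = 0.036) ended without wild-type replicate 2 or 3 or abi3-6 replicate 1 or 2 (up to 0.60) and was gone with RLE factors (0.0005). Scaled by library totals, GID1A and GID1C were called higher at 16 DAP (1.04 and 1.26), GID1A at 18 DAP was not called (log2 fold change -0.34), and the sign turned for GID1C at 18 DAP (0.66), RGL3 (0.88) and SLY1 (0.92) at 20 DAP and GAI at 24 DAP (0.26) and in dry seed (0.44). The embryo storage genes took 0.498% to 0.911% of counts in dry abi3-6, against 6.31% to 6.98% in wild type. The 4 endosperm genes took 0.208% to 0.314%, against 1.95% to 2.13%, with ZOU at 0 in both. The seed coat genes took more than in wild type, 0.00549% to 0.00665% against 0.000818% to 0.000997%. The part of these marker genes in these differences was not tested.

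The abi3-12 mutant showed a shorter list. RGL2 was raised early, at 22.1 and 23.2 CPM at 18 DAP against 11.1, 11.7 and 8.85 CPM in wild type, with log2 fold changes of 1.10, 1.00 and 0.97 at 18, 20 and 22 DAP. In dry seed it stood at 19.2, 20.4 and 20.1 CPM, a log2 fold change of 0.28 that was not called. RGL3 was also higher at 18 and 20 DAP (0.94 and 1.02), at 86.7, 76.7 and 78.9 CPM at 20 DAP, and its libraries at 20 DAP did not overlap those of wild type. SLY1 was higher at the same 2 stages (0.57 and 0.68). GID1A was lower from 22 DAP, and in dry seed it stood at 119, 107 and 107 CPM, a log2 fold change of -0.56 (adjusted p = 0.00074). In all, 13 of 45 tests were called, 8 higher and 5 lower, and by stage from 18 DAP to dry seed 3, 5, 2, 2 and 1 genes, beside 29.1%, 37.6%, 34.7%, 21.3% and 30.4% of all genes. Leaving out 1 library ended the calls of RGL3 (abi3-12 replicate 2, adjusted p = 0.057) and SLY1 (wild-type replicate 3, 0.076) at 18 DAP, and of GID1A at 24 DAP (wild-type replicate 1, 0.091; abi3-12 replicate 1, 0.063). It also ended those of RGA at 24 DAP (wild-type replicates 2 and 3, abi3-12 replicate 3, up to 0.17) and GID1C at 20 DAP (wild-type replicates 2 and 3, abi3-12 replicates 2 and 3, up to 0.71), whose sign turned under library totals (0.05). Under library totals GID1A at 22 and 24 DAP (-0.21 and -0.27) and RGA at 24 DAP (-0.53, adjusted p = 0.089) were not called, and with only the groups compared neither were GID1A at 22 DAP (adjusted p = 0.070) and RGA at 24 DAP (0.051).

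In dog1-4, mutated in the dormancy regulator, 3 DELLA genes were higher than in wild type while the receptors moved little. At 20 DAP RGL2 stood at 29.1, 29.4 and 30.3 CPM and at 22 DAP at 49.6, 51.8 and 44.7 CPM. The libraries of 24 DAP held 63.8, 101 and 90.2 CPM of RGL2, and those of dry seed 80.0, 109.9 and 77.9 CPM. Wild type stayed between 11.0 and 30.7 CPM over these stages, and no dog1-4 library overlapped the wild-type libraries of its stage. The log2 fold change of RGL2 was 1.28, 1.91, 1.74 and 2.45 (SE 0.19, adjusted p = 1.2e-16) from 20 DAP to dry seed. RGA was higher at all 4 stages (0.91 to 1.57), with 22.9, 31.7 and 24.0 CPM in dry dog1-4 against 7.86, 9.48 and 9.15 CPM in wild type. GAI was also higher at all 4 (0.46 to 0.79), with 55.7, 72.0 and 60.7 CPM in dry seed against 36.5, 35.2 and 37.3 CPM. GID1C was not called at any stage, and GID1A only in dry seed, at 131, 114 and 128 CPM (-0.39, adjusted p = 0.020). Under library totals that call was lost (-0.21, adjusted p = 0.26) and GID1A was called higher at 20 DAP (0.44, adjusted p = 0.012).

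Of 36 tests of the 9 genes in dog1-4, 16 were called, 15 of them higher, and 4, 3, 3 and 6 genes by stage from 20 DAP to dry seed, beside 12.5%, 17.8%, 15.2% and 30.6% of all genes. The dry-seed calls of GID1A (wild-type replicate 1, dog1-4 replicate 2; adjusted p up to 0.11), RGL3 (wild-type replicates 2 and 3, dog1-4 replicates 2 and 3; up to 0.11) and RGL1 (wild-type replicates 2 and 3, dog1-4 replicates 1 and 2; up to 0.094) each ended when 1 of the libraries named was left out, as did that of GAI at 20 DAP without dog1-4 replicate 3 (0.069). The embryo storage genes took 6.38% to 7.49% and the endosperm genes 2.09% to 2.59% of counts in dry dog1-4, ranges that overlap those of wild type.

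In abi3-12 dog1-4, which carries both mutations, the summed DELLA transcript of dry seed was 181.7 ± 2.8 CPM per kilobase (SD, n = 3), the highest of the 11 genotypes measured as dry seed. RGL2 reached 198, 209 and 206 CPM in dry seed against 14.5, 19.7 and 14.9 CPM in wild type, and the log2 fold change was 3.64 (SE 0.18, adjusted p = 3.5e-26). It was already at 70.0, 54.3 and 52.6 CPM at 18 DAP (2.49) and at 161, 187 and 129 CPM at 22 DAP (3.62). RGA was higher at every stage, at 56.4, 44.4 and 52.4 CPM at 22 DAP (1.99) and, in dry seed, at 36.9, 37.9 and 38.0 CPM (2.09). RGL3 was also higher at every stage (0.59 to 1.03), at 125, 124 and 124 CPM in dry seed, and GAI from 20 DAP on (0.39 to 0.56). The receptor GID1A was unlike wild type from 20 DAP, at 20.5, 25.2 and 24.0 CPM at 22 DAP, and in dry seed it held 36.2, 35.4 and 37.2 CPM (-2.17, SE 0.14, adjusted p = 3e-22). At 18 DAP it was at 35.6, 30.0 and 32.6 CPM and not called (0.22), but under library totals it was called higher there (1.04, adjusted p = 2.4e-08), as was GID1C (1.22). GID1C followed, at 12.9, 12.5 and 14.0 CPM in dry seed (-1.24). SLY1 was higher at 20 DAP, at 22.2, 19.3 and 19.7 CPM (1.15), and lower in dry seed, at 7.33, 7.80 and 7.84 CPM (-0.59). GID1B was called at all 5 stages, though with at most 22 counts a library at 18 DAP, where it was at least 1.81-fold above the wild-type floor.

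In sum over stages 40 of 45 tests were called in abi3-12 dog1-4, 29 higher and 11 lower, and from 18 DAP to dry seed 5, 8, 9, 9 and 9 genes, beside 41.2%, 58.8%, 75.2%, 69.4% and 73.8% of all genes. The ratio of receptor to DELLA transcript per kilobase was 0.112 at 22 DAP and 0.145 in dry seed, where wild type of batch B had 1.94 ± 0.11 (SD, n = 3), and RGL2 made up 48.5% of the DELLA sum. The call of SLY1 at 22 DAP ended without wild-type replicate 1 or 3 or abi3-12 dog1-4 replicate 2 or 3 (adjusted p up to 0.36), and that of GID1B ended at 22 DAP (wild-type replicate 1), 24 DAP (wild-type replicate 2) and in dry seed (wild-type replicates 2 and 3, abi3-12 dog1-4 replicates 1 and 2), with adjusted p up to 0.10. Under library totals the sign turned for GID1A (0.17) and GID1C (0.23) at 20 DAP and for SLY1 at 22 DAP (0.48), 24 DAP (0.04) and in dry seed (0.04). SLY1 at 22 DAP was also not called with RLE factors, DESeq2, no filter or only the groups compared. The embryo storage genes took 1.04% to 1.75% of counts in dry abi3-12 dog1-4, against 6.31% to 6.98% in wild type. The endosperm genes took 0.712% to 0.917%, against 1.95% to 2.13%. The seed coat genes took more than in wild type, 0.00403% to 0.00440% against 0.000818% to 0.000997%. The part of these marker genes in these differences was not tested.

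**Figure D3:**
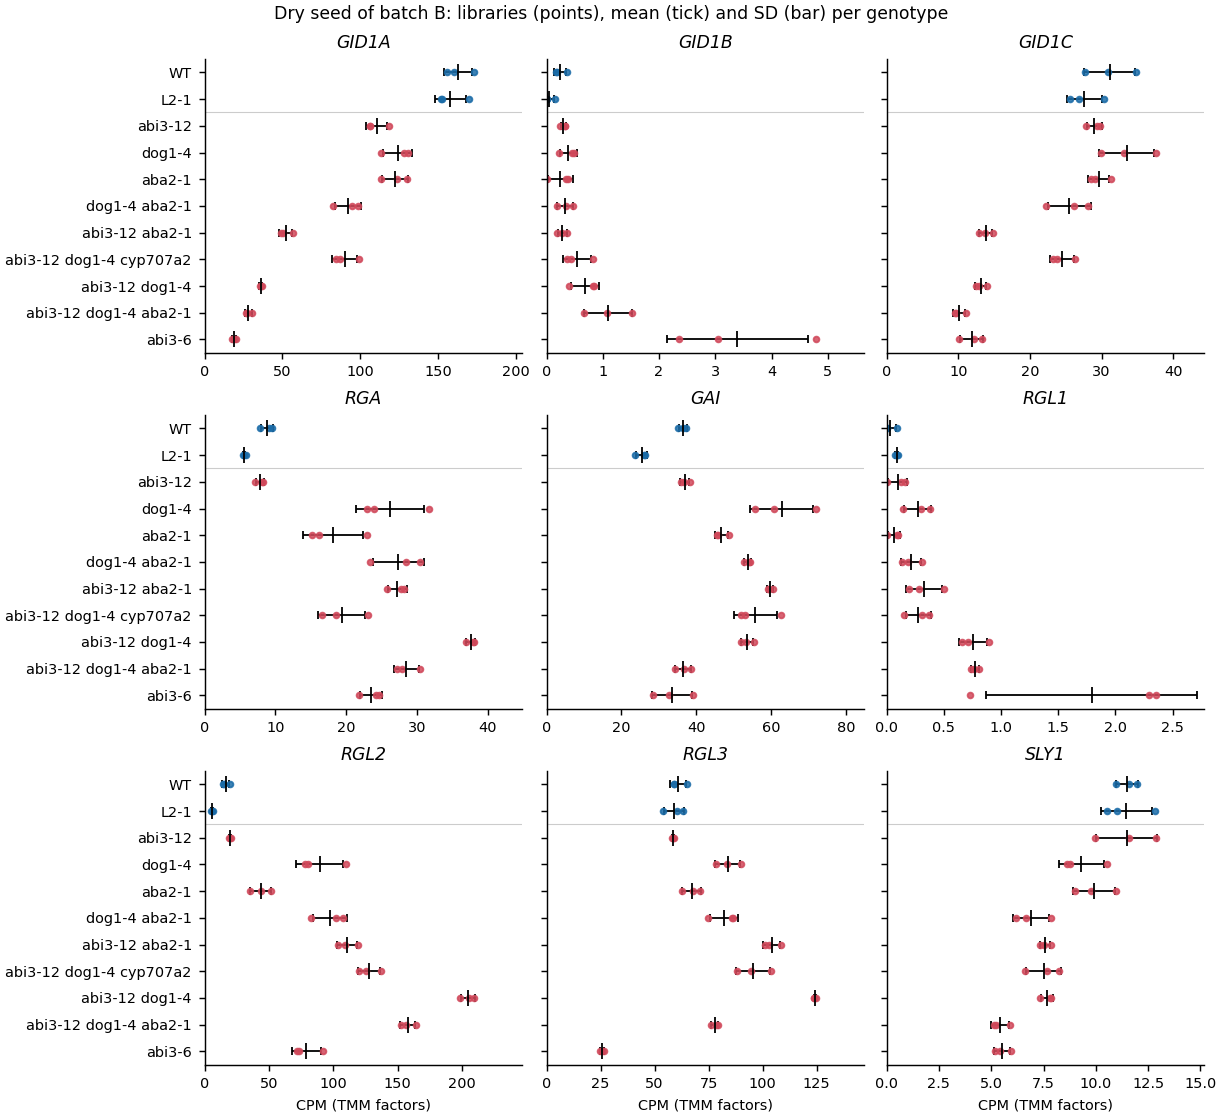
Levels of the 9 genes in dry seed of batch B (CPM, x axis, with a scale of its own in each panel) by genotype (rows); points are libraries, the tick is the mean and the bar the SD of 3 libraries. RGL2 spreads from 4.94 to 6.23 CPM in L2-1 to 198 to 209 CPM in abi3-12 dog1-4. GID1A spreads from 17.4 to 20.1 CPM in abi3-6 to 156 to 173 CPM in wild type, so the extremes lie in different genotypes.

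Against abi3-12 alone, the line with dog1-4 added differed in the receptors and in most DELLA genes. At 22 DAP, 24 DAP and in dry seed, abi3-12 dog1-4 was lower in GID1A (log2 fold changes of -2.11, -1.36 and -1.61) and GID1C (-1.70, -0.94 and -1.14). At 18 DAP both receptors were called higher instead (0.65 and 0.89), on the libraries named below. RGL2 was higher at all 5 stages, with log2 fold changes growing from 1.39 at 18 DAP to 3.36 in dry seed, and RGA from 0.75 to 2.27. RGL3 was not called at 18 and 20 DAP and was higher from 22 DAP, by 1.1 in dry seed. SLY1 was higher at 18 and 20 DAP (0.46 and 0.48) and lower from 22 DAP (-0.44 to -0.59). Of 45 tests 36 were called, 26 higher and 10 lower, and by stage 6, 5, 8, 9 and 8 genes, beside 12.4%, 36.9%, 69.7%, 62.0% and 69.2% of all genes. At 18 DAP abi3-12 had 2 libraries, and the calls of GID1A, GID1C, RGA and SLY1 there each ended when one of them, or for GID1C and SLY1 abi3-12 dog1-4 replicate 1, was left out (adjusted p up to 0.30 for RGA without abi3-12 replicate 2). Those of RGL3 at 22 DAP (abi3-12 replicate 3, 0.061) and SLY1 at 24 DAP (abi3-12 replicate 3, 0.072; abi3-12 dog1-4 replicate 1, 0.053) also rested on 1 library each. Under library totals the decreases of SLY1 at 22 DAP, 24 DAP and in dry seed were -0.06, -0.11 and -0.11 and not called, nor was that of GID1A at 20 DAP (-0.64 with TMM factors, -0.10 with library totals).

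The 2 abi3 alleles could be set against each other at 24 DAP and in dry seed, where both were in batch B. In abi3-6 GID1A was lower than in abi3-12 (-2.41 and -2.56), as were GID1C (-1.01 and -1.29), RGL3 (-1.13 and -1.20) and SLY1 (-0.98 and -1.07). RGL2 (1.85 and 1.99), RGA (1.83 and 1.59) and GID1B (4.23 and 3.46) were higher. At each stage 8 of 9 genes were called, beside 72.9% and 75.9% of all genes. RGL3 therefore stood at 25.4, 26.7 and 24.6 CPM in dry abi3-6, at 58.0 to 59.1 CPM in dry abi3-12 and at 124 to 125 CPM in dry abi3-12 dog1-4, with no overlap between the lines.

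With cyp707a2 added to abi3-12 dog1-4, the receptors lay nearer to the wild-type level from 22 DAP on. GID1A in the triple mutant stood at 96.7, 65.7 and 93.6 CPM at 22 DAP, and dry seed held 99.1, 86.9 and 84.3 CPM, above every abi3-12 dog1-4 library of the same stage and below every wild-type one. Against abi3-12 dog1-4 its log2 fold change was 1.88, 0.94 and 1.31 at 22 DAP, 24 DAP and in dry seed, and that of GID1C was 1.36, 0.74 and 0.90. RGA was lower than in abi3-12 dog1-4 at these stages (-1.71, -0.69 and -0.95), and at 22 DAP its libraries held 16.2, 14.8 and 15.7 CPM. RGL2 was also lower (-0.76, -0.47 and -0.68), at 125, 120 and 137 CPM in dry seed, which is still a log2 fold change of 2.96 above wild type. Against wild type, GID1A kept a log2 fold change of -0.86 in dry seed, RGL3 one of 0.65, GAI one of 0.62 and SLY1 one of -0.61. The receptor to DELLA ratio in dry seed was 0.474.

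Of 45 tests against abi3-12 dog1-4, 18 were called, 8 higher and 10 lower, and by stage 2, 1, 5, 4 and 6 genes, beside 6.46%, 5.83%, 67.9%, 53.7% and 62.4% of all genes. Against wild type 35 of 45 were called, 25 higher and 10 lower, and by stage 4, 8, 8, 7 and 8, beside 33.9%, 51.7%, 45.1%, 43.9% and 48.2%. Single libraries ended, against abi3-12 dog1-4, the call of RGL2 at 24 DAP (abi3-12 dog1-4 replicate 3, adjusted p = 0.31; triple mutant replicate 1, 0.055). Scaled by library totals, the sign against wild type turned for GID1A (0.21) and GID1C (0.23) at 20 DAP and for SLY1 at 22 DAP (0.03), and that of GAI against abi3-12 dog1-4 in dry seed, which was not called, turned to -0.28. The calls of SLY1 in dry seed (-0.32, adjusted p = 0.059) and of GID1C at 22 DAP (-0.11) and in dry seed (-0.05) against wild type were lost under that scaling, and GID1A and GID1C were called higher at 18 DAP (0.83 and 0.98). The embryo storage genes took 7.63% to 14.2% of counts in the triple mutant and 0.941% to 2.82% in abi3-12 dog1-4 at 22 DAP, the endosperm genes 2.17% to 2.32% and 0.712% to 0.917% in dry seed, and the part of either in these differences was not tested.

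The 4 lines with aba2-1, a mutation in an enzyme of abscisic acid synthesis, were measured as dry seed. All 4 had more RGL2 and RGA and less GID1A than wild type. In aba2-1 itself RGL2 stood at 51.9, 43.9 and 35.4 CPM (1.42), RGA at 23.0, 16.2 and 15.1 CPM (1.04) and GAI at 45.6, 48.7 and 45.9 CPM (0.36). In dog1-4 aba2-1 RGL2 stood at 107, 102 and 82.8 CPM (2.57), and GID1A at 94.6, 82.7 and 98.8 CPM (-0.83). In abi3-12 aba2-1 GID1A was at 50.7, 49.1 and 56.9 CPM (-1.64), GID1C was lower too (-1.17), and RGL2 was at 119, 109 and 104 CPM (2.76). In abi3-12 dog1-4 aba2-1 GID1A was at 27.0, 26.6 and 30.7 CPM (-2.54), RGL2 at 164, 156 and 152 CPM (3.27) and GAI at 36.6, 34.3 and 38.6 CPM, which was not called (0.01; 0.56 and called under library totals). GID1B was called in that line alone of the 4 (2.17). In all 26 of 36 tests were called, 17 higher and 9 lower: 4 genes in aba2-1, 7 in dog1-4 aba2-1, 8 in abi3-12 aba2-1 and 7 in abi3-12 dog1-4 aba2-1, beside 15.8%, 48.4%, 61.5% and 75.3% of all genes. In aba2-1 the calls of GID1A (-0.41; without wild-type replicate 1 or 3 or aba2-1 replicate 1 or 2) and GAI (without replicate 2 of either) ended, with adjusted p up to 0.13 and 0.058. The embryo storage genes took 9.73% to 11.2% of counts in dry dog1-4 aba2-1, 4.39% to 5.28% in abi3-12 aba2-1 and 2.01% to 2.63% in abi3-12 dog1-4 aba2-1, with a mean of 10.3% in aba2-1, against 6.31% to 6.98% in wild type. The endosperm genes took 1.47% to 1.80% in aba2-1, 1.13% to 1.31% in abi3-12 aba2-1 and 0.646% to 0.808% in abi3-12 dog1-4 aba2-1, against 1.95% to 2.13%. The seed coat genes took 0.000693% to 0.000757% in aba2-1 and 0.00109% to 0.00132% in dog1-4 aba2-1. They took 0.00246% to 0.0027% in abi3-12 aba2-1 and 0.005% to 0.00522% in abi3-12 dog1-4 aba2-1, against 0.000818% to 0.000997% in wild type. The part of these marker genes in the differences of these 4 lines was not tested.

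Whether the mutations acted on a member by more or less than their separate log2 effects together was tested as an interaction in dry seed. With abi3-12 and dog1-4 combined, GID1A was lower by a further -1.22 (SE 0.19, adjusted p = 4.5e-07) and GID1C by a further -1.25 (SE 0.20, adjusted p = 9.3e-07) than the sum of the single effects, and RGL2 was higher by a further 0.91 (adjusted p = 0.0033). RGA (0.70) and RGL3 (0.62) were also called. For abi3-12 and aba2-1 the terms were -0.67 for GID1A, -1.0 for GID1C and 1.06 for RGL2 (adjusted p = 0.0031), with RGA (0.76) and RGL3 (0.69) called as well. For dog1-4 and aba2-1 the term of RGL2 had the other sign, -1.29 (adjusted p = 0.0029): the single mutants gave log2 fold changes of 2.45 and 1.42, and the double mutant 2.57. RGA (-0.97) and GAI (-0.59) also had negative terms. The term for all 3 mutations was called for RGL2 (-1.56), RGL3 (-1.33), RGA (-1.23), GID1C (1.01) and GAI (-0.66). Called were 5, 5, 3 and 5 genes of 9, beside 37.3%, 14.2%, 1.01% and 14.8% of all genes. All these tests share the wild-type libraries. The terms of RGA and RGL3 in the abi3-12 with dog1-4 and abi3-12 with aba2-1 tests, of RGA and GAI in the dog1-4 with aba2-1 test and of GAI in the test of all 3 each lost their call when any 1 of 2 to 11 of the libraries was left out (adjusted p up to 0.18), and with no filter RGA and RGL3 were not called for abi3-12 with aba2-1 (0.055 and 0.052). Under library totals the calls were lost for GID1A with abi3-12 and aba2-1 (-0.38), for GAI (adjusted p = 0.074) and RGA (0.088) with dog1-4 and aba2-1, and for GID1C in the test of all 3 (0.64, adjusted p = 0.14).

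In L2-1 the DOG1 transcript lay at 37.1 to 42.1 CPM, against 24.4 to 40.6 CPM in wild type, and the line differed from wild type in 1.01% of all genes. RGL2 was among them, at 6.23, 4.94 and 5.55 CPM against 14.5, 19.7 and 14.9 CPM, and its log2 fold change was -1.55 (SE 0.22, adjusted p = 1.7e-06) with no overlap between the libraries. GAI was lower as well, at 23.8, 26.3 and 26.1 CPM (-0.52, SE 0.11, adjusted p = 0.0049; 0.069 without L2-1 replicate 1). RGA stood at 5.55, 5.79 and 5.48 CPM, below the 3 wild-type libraries, with a log2 fold change of -0.66 that was not called (adjusted p = 0.15). The other 6 genes were not called. RGL2 made up 5.8% of the DELLA sum in L2-1 and 13.4% in wild type, and the ratio of receptor to DELLA transcript was 2.36. The endosperm genes took 1.64% to 2.02% and the embryo storage genes 6.24% to 6.78% of counts, ranges that overlap those of wild type.

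The difference from wild type changed with stage for some members, tested over all stages a line shares with wild type in batch B. In abi3-12 the differences of RGL3 (adjusted p = 0.000167), RGL2 (0.00033), SLY1 (0.0133) and GAI (0.0204) depended on stage, and in dog1-4 those of SLY1 (0.00368) and RGL2 (0.0289). In abi3-12 dog1-4 they were GID1A (2.2e-19), SLY1 (7.44e-15), GID1C (8.27e-09), RGL1, RGA and RGL2, and in abi3-12 dog1-4 cyp707a2 SLY1 (7.73e-14), GID1A (0.000124), RGL3 (0.000494), RGA (0.0383) and RGL1 (0.0398). That is 4, 2, 6 and 5 genes of 9, beside 23.0%, 4.95%, 65.4% and 32.8% of all genes. In abi3-12 that of GAI ended without wild-type replicate 2 or 3 at 24 DAP or abi3-12 replicate 2 at 20 DAP (up to 0.086), and in the triple mutant those of RGA and RGL1 ended on leaving out any 1 of 12 and 9 libraries (up to 0.13 and 0.096). The stage dependence of RGL2 in dog1-4 ended without wild-type replicate 1 at 20 DAP, wild-type dry replicate 1 or 3 or dog1-4 dry replicate 2 (adjusted p up to 0.15). Under library totals it was not called either (0.053), nor was that of RGA (0.089) or RGL1 (0.11) in the triple mutant. RGL2 and RGL3 were thus higher in abi3-12 early, while neither was called in dry seed, and the log2 fold change of RGL2 in dog1-4 was highest in dry seed. SLY1 was higher than wild type at 18 and 20 DAP and lower from 22 DAP in abi3-12 dog1-4 and abi3-12 dog1-4 cyp707a2. Under library totals its later decrease turned sign at 22 DAP in both and at 24 DAP and in dry seed in abi3-12 dog1-4. The 22 DAP decrease also lost its call with RLE factors (adjusted p = 0.31 in abi3-12 dog1-4, 0.065 in the triple mutant). So it did with DESeq2 (0.36 and 0.067), no filter (0.12 and 0.082) and only the groups compared (0.42 and 0.35). With DESeq2 the 24 DAP decrease in abi3-12 dog1-4 was not called either (0.067).

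**Figure D4:**
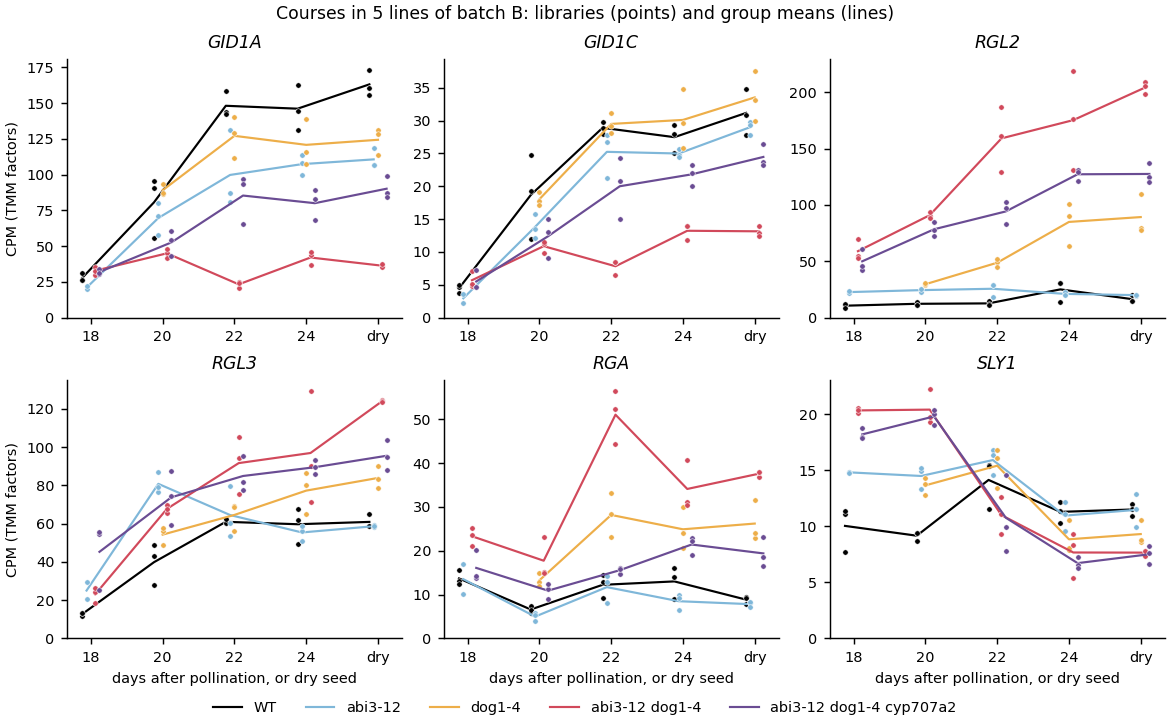
Levels of 6 of the genes in batch B (CPM, y axis, with a scale of its own in each panel) against days after pollination or dry seed (x axis) for wild type and 4 lines; points are libraries and lines join group means. GID1A of abi3-12 dog1-4 stays between 20.5 and 48.0 CPM at all 5 stages while wild type reaches 142 to 158 CPM at 22 DAP, and RGL2 climbs in the 3 lines that carry dog1-4.

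Over the 30 comparisons of a line with wild type at 1 stage, RGL2 was called higher in 27 and lower in 1 (L2-1), RGA higher in 22 and lower in 1, and GAI higher in 20 and lower in 2. RGL3 was higher in 17 and lower in 3, all in abi3-6, and RGL1 was higher in 16. Outside abi3-6 at 16 and 18 DAP, each RGL1 call was against a wild-type group at the counting floor. The bounds there ran from at least 0.793-fold in dry dog1-4 aba2-1 to at least 9.14-fold in abi3-6 at 20 DAP. A bound near or under 1 does not settle a rise. The dog1-4 aba2-1 call was lost with no filter (adjusted p = 0.058) and with DESeq2 (0.065). The receptors parted: GID1A was lower in 21 and GID1C in 15, with none higher under TMM factors, and GID1B was higher in 14 with none lower. Under library totals GID1A and GID1C turned sign at 20 DAP in abi3-12 dog1-4 and abi3-12 dog1-4 cyp707a2, and GID1C also in abi3-6 at 18 DAP, where it was called higher (0.66), and in abi3-12 at 20 DAP. Both were also called higher under that scaling in abi3-6 at 16 DAP and in those 2 lines at 18 DAP, and GID1A in dog1-4 at 20 DAP. SLY1 was higher in 9 and lower in 12, with the turns of sign given above. These comparisons share wild-type libraries and lines that share mutations, so they are not separate pieces of evidence. Most genes tested were also called in abi3-6, and in abi3-12 dog1-4 from 20 DAP, so the number of calls there is no result about these 9.

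**Figure D5:**
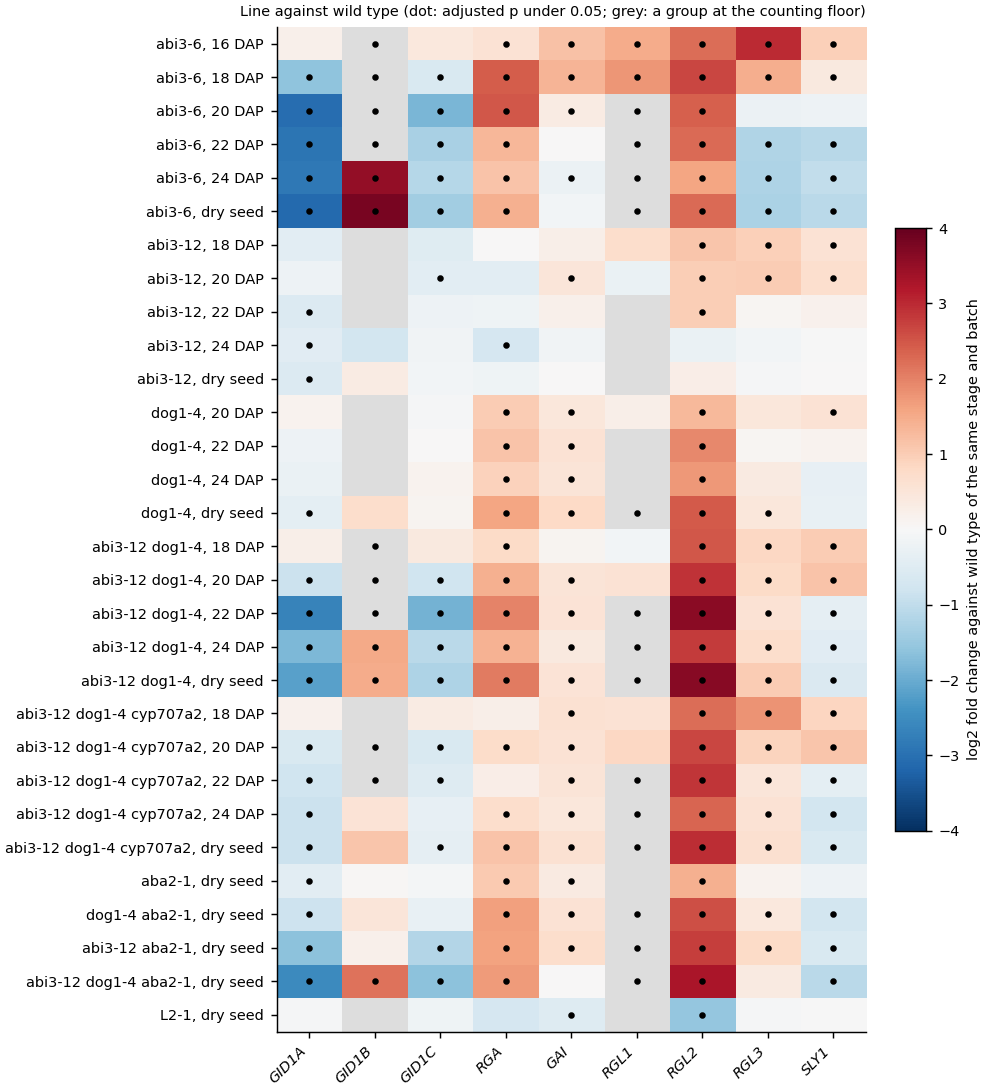
Log2 fold change of each gene (columns) in each line against wild type of the same stage and batch (rows), by colour from -4 (blue) to 4 (red); a dot marks an adjusted p under 0.05, and grey marks a pair in which a group is at the counting floor, whose fold is not drawn. The RGL2 column is red in 27 called rows and blue in the L2-1 row, and the GID1A column is blue in 21 called rows, of which those of abi3-12 dog1-4 and abi3-12 dog1-4 cyp707a2 at 20 DAP turn sign under library totals.

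Across group means, GID1A and GID1C moved together, with a Pearson r of 0.88 over the 31 groups of batch B and 0.80 over the 12 of batch A, and RGA and RGL2 likewise, at 0.83 and 0.84. RGL1 went against the 2 receptors, at -0.88 and -0.89 with GID1A. Group means share genotype and stage, so these values describe the course and no p was computed. By the same measure over batch B, the genes most like RGL2 were AT2G37930 and AT3G08030 (both 0.952, and 0.69 and 0.81 in batch A), and those most like GID1A were AT4G18905 (0.979, and 0.946) and AT5G03180 (0.979, and 0.979). GID1C was followed most closely by AT4G16830 (0.979, and 0.989) and LON2 (0.968, and 0.876). RGL3 was nearest to MFP2 (0.900, and 0.949), an enzyme of fatty acid beta-oxidation, and PMDH1 (0.890, and 0.967), a peroxisomal malate dehydrogenase. GID1B was nearest to AT3G46500 (0.902, and 0.956) and FER1 (0.901, and 0.907), a ferritin.

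Other genes of the gibberellin pathway were read from 3 lists chosen with earlier results of these data known. Of 16 signalling partners, which hold the second F-box protein SNE, the modifying enzymes SPY and SEC, ligase subunits and factors that bind DELLA proteins, all 16 were called in dry abi3-12 dog1-4, 6 higher and 10 lower, with a median log2 fold change of -0.70, where the median of all genes was 0.13 and 73.8% of them were called. In dry abi3-6 12 were called, 4 higher and 8 lower, beside 77.7% of all genes, and in dry dog1-4 9, 3 higher and 6 lower, beside 30.6%. None was called in L2-1, beside 1.01%. BRG3, a RING protein that binds DELLA proteins, stood at 75.5 CPM in dry wild type and 13.4 CPM in dry abi3-12 dog1-4 (-2.49), its relative BRG2 was at least 10.2-fold higher than the wild-type floor, and SNE at least 2.73-fold.

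Of 9 GASA genes, which encode small cysteine-rich peptides and of which several respond to gibberellin, 7 were tested and 6 were called in dry abi3-12 dog1-4, 4 higher and 2 lower, beside 73.8% of all genes. Their median log2 fold change was 5.01, or 0 with the genes at the counting floor set to their bounds, so the median says little. GASA4 went from 0.236 CPM to 410 CPM, at least 1544-fold higher, and GASA6 from 0 to 4.61 CPM, at least 17.3-fold higher, while GASA2 went from 145 to 0.449 CPM (-8.26). Of 21 genes of gibberellin synthesis and inactivation, 13 were tested in batch B and 9 were called in that line, 5 higher and 4 lower, a share near that of all genes. GA20ox1, which makes a precursor of active gibberellin, stood at 0.701 CPM in wild type and 13.9 CPM in abi3-12 dog1-4 (4.28), and GA3ox2, which completes the active hormone, was at least 3.80-fold above the floor at 1.01 CPM. GA3ox4 was called higher too, but its bound of at least 0.912-fold does not settle a rise. The median log2 fold change of this list was 0.31, or 0 with the genes at the floor set to their bounds. In dry dog1-4 4 GASA genes were called, 3 higher and 1 lower, and 7 genes of synthesis and inactivation, 6 higher and 1 lower, beside 30.6% of all genes. In L2-1 no GASA gene and 2 genes of synthesis and inactivation were called, beside 1.01%.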

How the data were processed

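Strand-specific RNA-seq libraries from poly(A) RNA of whole seeds were sequenced, and the deposited table holds raw read counts per gene made by the authors. Per the submitters' processing notes the genome was TAIR10, and HISAT2 2.1.0, Cufflinks, SAMtools and StringTie 1.3.2 were used; the counting program, its strand setting and its annotation are not given in the sources used here. Counts were analysed in R 4.3.3 with edgeR 4.0.16, with limma 3.58.1 beneath it, in each batch alone, since no line spans both batches at 1 stage except wild type. Genes were kept by filterByExpr on group (minimum count 10), which left 20414 genes (A) and 20912 genes (B), and library sizes were scaled by TMM. One coefficient was fitted per group, and 54 comparisons (486 tests of the 9 genes) were read with the quasi-likelihood test and Benjamini-Hochberg adjustment over all genes tested. The log2 CPM behind the correlations carry a prior count of 2. Where every library of a group lay at or under 3 counts, folds given as at least a value were computed against that floor. The tests and their log2 fold changes used the counts as they were. Common dispersions were 0.0111 (A) and 0.0168 (B). Exon lengths, positions and sequences are RefSeq's for TAIR10.1, and genes were matched by locus tag. All 117 pairs of replicate libraries differed by more than counting noise. The fit was checked on simulated counts. Alternatives were RLE factors, library totals, no filter, only the groups compared, the replicate number as a block, DESeq2 1.42.0 and each library left out in turn, the block and left-out fits at the dispersions of all libraries. The genes, the pathway lists, the markers and the tests were chosen with earlier results of these data known. Genes outside the 9 were named by 2 rules: the 2 most correlated with a member over group means of batch B, and the listed pathway genes with the largest called changes in dry abi3-12 dog1-4. Sequence upstream of the genes is not reported here.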

Additional observations from a re-analysis of the deposited data

Results flagged for a closer look

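Differences from wild type that changed with stage were picked out by a test over all stages that a line shares with wild type in batch B (edgeR's quasi-likelihood test, Benjamini-Hochberg adjustment over all genes). In abi3-12 the adjusted p was 0.000167 for RGL3, 0.00033 for RGL2, 0.0133 for SLY1 and 0.0204 for GAI. In dog1-4 it was 0.00368 for SLY1 and 0.0289 for RGL2. In abi3-12 dog1-4 it was 2.2e-19 for GID1A, 7.44e-15 for SLY1, 8.27e-09 for GID1C, 4.26e-07 for RGL1, 0.000182 for RGA and 0.000404 for RGL2. In abi3-12 dog1-4 cyp707a2 it was 7.73e-14 for SLY1, 0.000124 for GID1A, 0.000494 for RGL3, 0.0383 for RGA and 0.0398 for RGL1, and the last 2 were lost when any 1 of 12 and 9 libraries was left out.

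Effects that differed between genetic backgrounds in dry seed were picked out by interaction terms, given on the log2 scale. For abi3-12 with dog1-4 the called terms were -1.22 for GID1A, -1.25 for GID1C, 0.70 for RGA, 0.91 for RGL2 and 0.62 for RGL3. For abi3-12 with aba2-1 they were -0.67 for GID1A, -1.0 for GID1C, 0.76 for RGA, 1.06 for RGL2 and 0.69 for RGL3. For dog1-4 with aba2-1 they were -1.29 for RGL2, -0.97 for RGA and -0.59 for GAI. The term of the 3 mutations together was -1.56 for RGL2, -1.33 for RGL3, -1.23 for RGA, -0.66 for GAI and 1.01 for GID1C. Groups of 2 or 3 libraries are too small for Dixon's criterion, so no single library was screened by it.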

How the results depend on the processing

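A test of the 9 genes counted as kept if it stayed on its side of the threshold and, where called, kept its sign. Signs were not compared for tests called in neither setting, and tests over several stages have none. Of 486 tests, 473 were kept with RLE factors, 404 with library totals and 470 with no filter. With only the groups compared 402 were kept (53 not tested there), with the replicate block 482 and with DESeq2 467. With 1 library left out 3886 of 4140 tests were kept. RLE factors shifted the median over all genes, in log2 fold change, by -0.128 to 0.245, and library totals by -0.542 to 1.263. GAI in abi3-6 at 24 DAP turned to 0.0004641 with RLE factors, 0.001394 with DESeq2 and 0.2608 with library totals. With library totals the other turns were GAI from 12 to 18 DAP in wild type (-0.2053), RGL2 from 18 DAP to dry in batch A (0.376), GID1C in abi3-6 at 18 DAP (0.6587), RGL3 (0.8809) and SLY1 (0.9187) in abi3-6 at 20 DAP, GAI in dry abi3-6 (0.4357) and GID1C in abi3-12 at 20 DAP (0.04972). In abi3-12 dog1-4 they were GID1A (0.1703) and GID1C (0.2302) at 20 DAP and SLY1 at 22 DAP (0.4792), 24 DAP (0.04234) and dry (0.04388), and in the triple mutant with cyp707a2 GID1A (0.2086) and GID1C (0.2314) at 20 DAP and SLY1 at 22 DAP (0.02736). GAI between those lines in dry seed turned to -0.2753. The cause was not tested.

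Counts of called tests with 1 library left out ran from 8 to 9 for the wild-type course, 5 to 7 for 18 against 12 DAP and for dry against 18 DAP in each batch, 47 to 49 for abi3-6, 12 to 14 for abi3-12, 13 to 17 for dog1-4, 38 to 40 for abi3-12 dog1-4, 31 to 36 for the triple mutant, 23 to 27 for the aba2-1 lines, 33 to 37 for abi3-12 dog1-4 against abi3-12, 17 to 19 for the triple mutant against abi3-12 dog1-4, 16 to 17 between the abi3 alleles, 13 to 18 for interactions, 14 to 18 by stage and 1 to 2 for L2-1, where leaving out L2-1 replicate 1 left RGL2 alone. At any stage of wild type GID1B (adjusted p = 0.0496) lost its call on leaving out 19 of the 23 libraries. Same-numbered replicates were not paired: of 39 comparisons with 3 pairs, 1 had every correlation over 0.1, and correlations over all ran from -0.2856 to 0.2307. With the replicate block the counts were 8 for the wild-type course, 7 for 18 against 12 DAP, 6 for dry against 18 DAP in batch A and 7 in batch B, 49 for abi3-6, 13 for abi3-12, 16 for dog1-4, 40 for abi3-12 dog1-4, 35 for the triple mutant, 27 for the aba2-1 lines, 2 for L2-1, 36 for abi3-12 dog1-4 against abi3-12, 18 for the triple mutant against abi3-12 dog1-4, 16 between alleles, 18 for interactions and 17 by stage. GID1B and RGL1 are limited by depth, with wild-type libraries often at 0 to 5 counts.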

Other observations

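The balance of receptor and DELLA transcript per kilobase of exon was shifted before the seed had dried. In abi3-6 at 18 DAP the receptor sum was 12.5 and the DELLA sum 117 CPM per kilobase, a ratio of 0.107, where wild type of batch A had 31.2 and 30.6, a ratio of 1.03. In dog1-4 and aba2-1 dry seed the ratio was 0.752 and 1.07, with receptor sums of 83.3 and 80.1, and in dry abi3-12, with a receptor sum of 73.7 and a DELLA sum of 53.1, it was 1.39. In abi3-12 aba2-1 and abi3-12 dog1-4 aba2-1 it was 0.268 and 0.159. These sums are of transcripts and were set side by side as a description.

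The pairs named for GAI and SLY1 had a lower r in batch A than in batch B. The genes nearest to GAI over the 31 groups of batch B were STRS1 (r = 0.870) and AT1G03580 (0.858), and over the 12 groups of batch A the same 2 pairs gave 0.775 and 0.168. For SLY1 they were AT2G33845 (0.905, and 0.677) and DET2 (0.894, and 0.648), the latter a steroid reductase of brassinosteroid synthesis. RGL1 was nearest to BRH1 (0.973, and 0.904) and GPX2 (0.972, and 0.903), and RGA to AT5G18650 (0.926, and 0.625) and AT1G34110 (0.919, and 0.914).

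The signalling partners in dry seed of the other lines were called in 5 of 16 in abi3-12 (none higher), 6 in aba2-1 (2 higher), 11 in dog1-4 aba2-1 (5 higher), 14 in abi3-12 aba2-1 (5 higher), 15 in abi3-12 dog1-4 aba2-1 (6 higher) and 11 in abi3-12 dog1-4 cyp707a2 (4 higher), beside 30.4%, 15.8%, 48.4%, 61.5%, 75.3% and 48.2% of all genes. Against abi3-12 dog1-4, the line with cyp707a2 added had 14 called, 10 of them higher, with a median log2 fold change of 0.51, beside 62.4% of all genes called. Of 7 GASA genes tested in dry seed, 3 rose and 2 fell by a called change in dog1-4 aba2-1. The abi3-12 aba2-1 and abi3-12 dog1-4 aba2-1 lines each had 4 such rises and 2 such falls. Beside these, 25.3%, 32.6% and 41.3% of all genes rose by a called change, and 23.1%, 28.9% and 34% fell. The list had 4 genes at the counting floor in each comparison. With those genes set to their bounds, its median log2 fold change was 0, 0.25 and 1.70.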
